A study of Mus musculus with 12 samples.

Results

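The genes described here encode the machinery that cuts the 3' ends of RNA polymerase II transcripts, adds poly(A) tails and ends transcription, together with the Integrator complex. They are 33 of the 32246 genes in the table, picked by symbol: 6 core CPSF subunits, the scaffold Sympk, 4 CstF subunits, 3 CFI and 2 CFII subunits, 3 genes for poly(A) polymerases and the nuclear poly(A)-binding protein, 3 termination and accessory genes and 11 Integrator subunits. All 33 were expressed above the test's filter, which asked for an FPKM (fragments per kilobase of gene length, corrected for the library's read total) no lower than 1 in 4 or more of the 12 libraries. Total RNA had been sequenced from mouse macrophages that grew out of bone marrow during 7 days in GM-CSF at 50 ng/mL, a culture that also yields dendritic-like cells. Untreated cells, cells given plasminogen (PLG) that had met EACA (the lysine mimic 6-aminohexanoic acid, which occupies plasminogen's lysine-binding sites), and cells given PLG exposed to EACA and RNases had 4 libraries each, and exposure lasted 24 h. Every treated library thus had both PLG and EACA, and no library had either alone or the RNases alone. The labels name neither strain, age nor sex and do not say whether replicates were separate animals or cultures, so every p-value measures the spread between these libraries, which may be technical.

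A pre-mRNA is cut downstream of a poly(A) signal, usually AATAAA in the gene's DNA letters. In the CPSF core, WDR33 and CPSF4 read that signal and CPSF3 is the nuclease, held with CPSF2 and symplekin. CPSF1 is the large platform of the core, and FIP1 brings in poly(A) polymerase. CstF binds the GU-rich stretch beyond the cut, CFI binds UGUA motifs upstream and influences which of several sites is used, and CFII (PCF11 and CLP1) is needed for cleavage and for release of the polymerase. The exonuclease XRN2 then degrades the RNA still attached to the polymerase. Integrator is a separate complex with its own nuclease, which processes the ends of small nuclear RNAs and enhancer RNAs and attenuates transcription close to promoters. In macrophages, shifts in 3' end use are known to accompany activation, although poly(A) site use itself was not measured by this gene-level table.

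Depth ran from 12940886 to 22677051 reads per library, worked out from the smallest FPKM steps. The values were deposited without scaling between libraries, and on that scale the median of the 11165 genes tested lay at -0.26 (log2) after PLG+EACA and -0.20 after PLG+EACA+RNase against untreated cells, and at 0.04 between the treatments. After median-of-ratios scaling these medians were -0.01, 0.01 and -0.00. For most members, changes below are therefore given on the deposited scale and after scaling. Those of the surrounding genes read from lists are as deposited. Overlap between the libraries of a gene refers to deposited FPKM unless scaling is named. The share of all genes tested whose groups did not overlap is not given here. PLG+EACA replicate 4 had the lowest scaling factor, 0.877 against 0.933 to 0.952 in the other libraries of its group. The 10 macrophage markers examined were all expressed and summed to 5694 to 6289 FPKM in untreated cells, 4469 to 6423 after PLG+EACA and 4352 to 4916 after PLG+EACA+RNase, most of it Lyz2. Within that list Csf1r averaged 324, 187 and 186 FPKM and Mertk 5.97, 13.9 and 9.20, each with both treated groups apart from the untreated one, in opposite directions. Of the 10 dendritic cell markers, 5 had a mean FPKM under 1 and the list, mostly Itgax, summed to 607 to 658, 437 to 573 and 535 to 587. All 9 T and NK cell and all 8 B cell markers in the table had a mean under 1, and Nkg7 and Igkc were listed at 0 in every untreated library. The 10 neutrophil markers, led by S100a9, summed to 14.2 to 58.2, 26.1 to 70.3 and 24.9 to 60.4 FPKM, with Ly6g at 0 in untreated cells. The mast cell and basophil list summed to 2.60 to 4.66, 1.56 to 1.86 and 1.90 to 6.90, and the stroma and endothelium list to 10.9 to 20.4, 11.8 to 27.6 and 9.59 to 19.1. The erythroid and megakaryocyte list (7 genes in the table, 5 under 1) summed to 249 to 388 FPKM in untreated cells, 110 to 185 and 127 to 208, nearly all of it Pf4. Mitochondrial mRNA held 0.621% to 0.711% of reads in untreated cells, 0.489% to 0.647% after PLG+EACA and 0.400% to 0.484% after PLG+EACA+RNase, and the noncoding RNA Gm26917 held 10.3% to 11.9%, 10.98% to 14.3% and 13.3% to 15.2%. The part of these shifts in the results below was not tested.

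Against untreated cells, the changes in this machinery ran in both directions. The torpedo exonuclease gene Xrn2 rose with both treatments, and Integrator subunits Ints7 and Ints3 fell with both. Ints7 fell by about 2.06-fold and 2.34-fold as deposited, and by 1.75-fold and 2.03-fold after median-of-ratios scaling. After PLG+EACA, 2 members rose and 19 fell at an adjusted p under 0.05 (limma, Benjamini-Hochberg over all genes tested), where 14.9% of all tested genes rose and 53.4% fell. After PLG+EACA+RNase, 5 rose and 20 fell, where the shares over all genes were 16.0% and 48.4%. The downward majority was absent after median-of-ratios scaling. There 9 rose and 8 fell after PLG+EACA (all genes 27.3% and 26.4%), and 8 rose and 7 fell after PLG+EACA+RNase (all genes 28.4% and 26.4%). With upper-quartile scaling instead, more members still fell than rose with both treatments, but the shares over all genes on that scale are not given here. The median member changed by -0.21 and -0.21 as deposited, close to the medians of all genes, and by 0.01 and 0.00 after median-of-ratios scaling. Set against those shares, the counts are no result about the list, and the account below is of single subunits. In bulk RNA, fewer cells expressing a gene and less of its RNA per cell cannot be told apart.

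**Figure D1:**
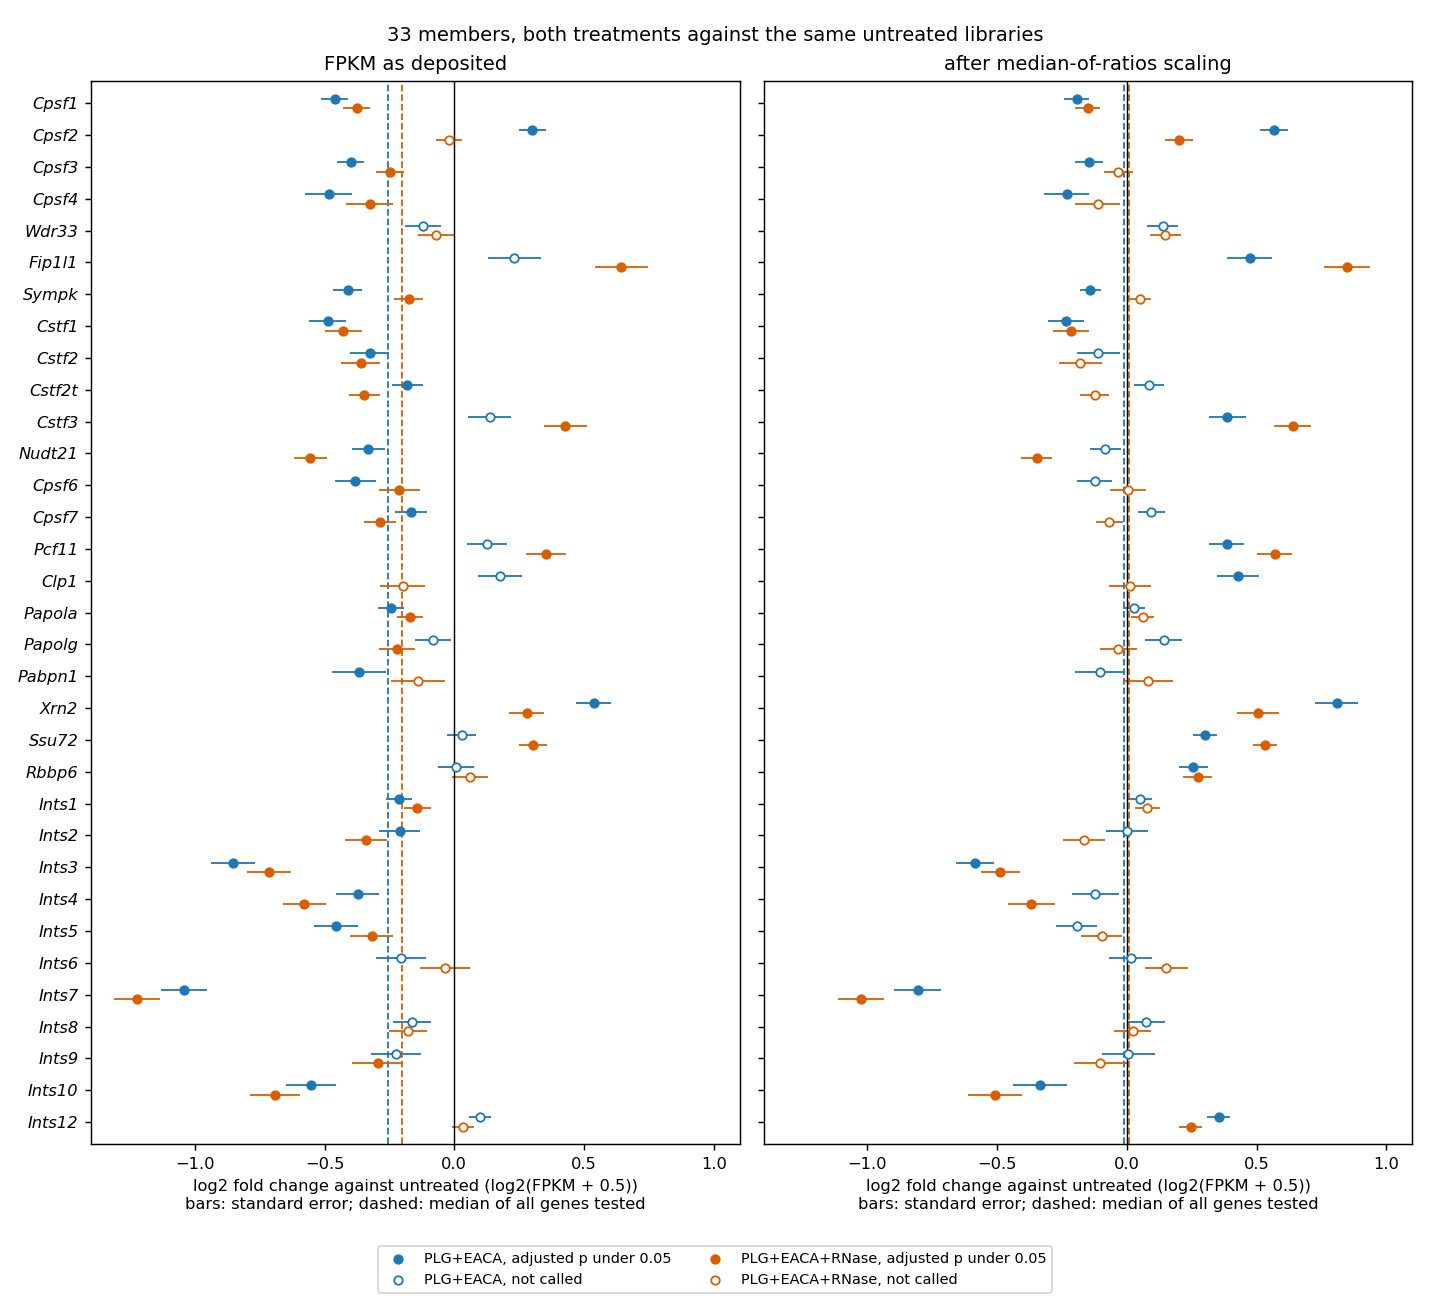
Log2 fold change (x axis, on log2(FPKM + 0.5), bars show the standard error) of each of the 33 members after PLG+EACA (blue) and PLG+EACA+RNase (orange) against the same 4 untreated libraries, as deposited (left) and after scaling (right). Filled points had an adjusted p under 0.05 and dashed lines mark the medians of all genes tested: Ints7 lies farthest left on both scales, Xrn2 and Fip1l1 farthest right, and most points between them shift by the distance between the dashed lines.

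Calls that held on both scales give the shorter list. After PLG+EACA, Cpsf2 and Xrn2 rose, and Cpsf1, Cpsf3, Cpsf4, Sympk, Cstf1, Ints3, Ints7 and Ints10 fell. After PLG+EACA+RNase, Fip1l1, Cstf3, Pcf11, Xrn2 and Ssu72 rose, and Cpsf1, Cstf1, Nudt21, Ints3, Ints4, Ints7 and Ints10 fell. Both comparisons use the same untreated libraries, so what these lists share is no independent repeat. By role, the 22 genes of cleavage, polyadenylation and termination had 2 higher and 12 lower after PLG+EACA and 5 higher and 12 lower after PLG+EACA+RNase, which became 8 and 5, and 7 and 3, after scaling. The 11 Integrator subunits had 0 higher and 7 lower, and 0 higher and 8 lower, which became 1 and 3, and 1 and 4. Over all genes tested, 14.9% rose and 53.4% fell after PLG+EACA, and 16.0% and 48.4% after PLG+EACA+RNase. After scaling these shares were 27.3% and 26.4%, and 28.4% and 26.4%. For calls that held on both scales, the share over all genes was not computed.

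The direct comparison of the treatments, which differ in the RNase exposure of the PLG, moved fewer members. Fip1l1, Cstf3, Ssu72 and Sympk were higher after PLG+EACA+RNase than after PLG+EACA, and Clp1, Cpsf2, Xrn2 and Nudt21 were lower, 4 in each direction, against 12.1% and 8.73% of all genes. After scaling these 8 held and Cpsf7 and Cstf2t were also lower, giving 4 and 6, against 10.6% and 11.4%. All 8 belong to cleavage, polyadenylation and termination. None of the 11 Integrator subunits passed in this comparison on either scale, with log2 differences from -0.20 ± 0.08 (Ints4) to 0.17 ± 0.10 (Ints6), where ± is the standard error of the limma fit here and below.

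**Figure D2:**
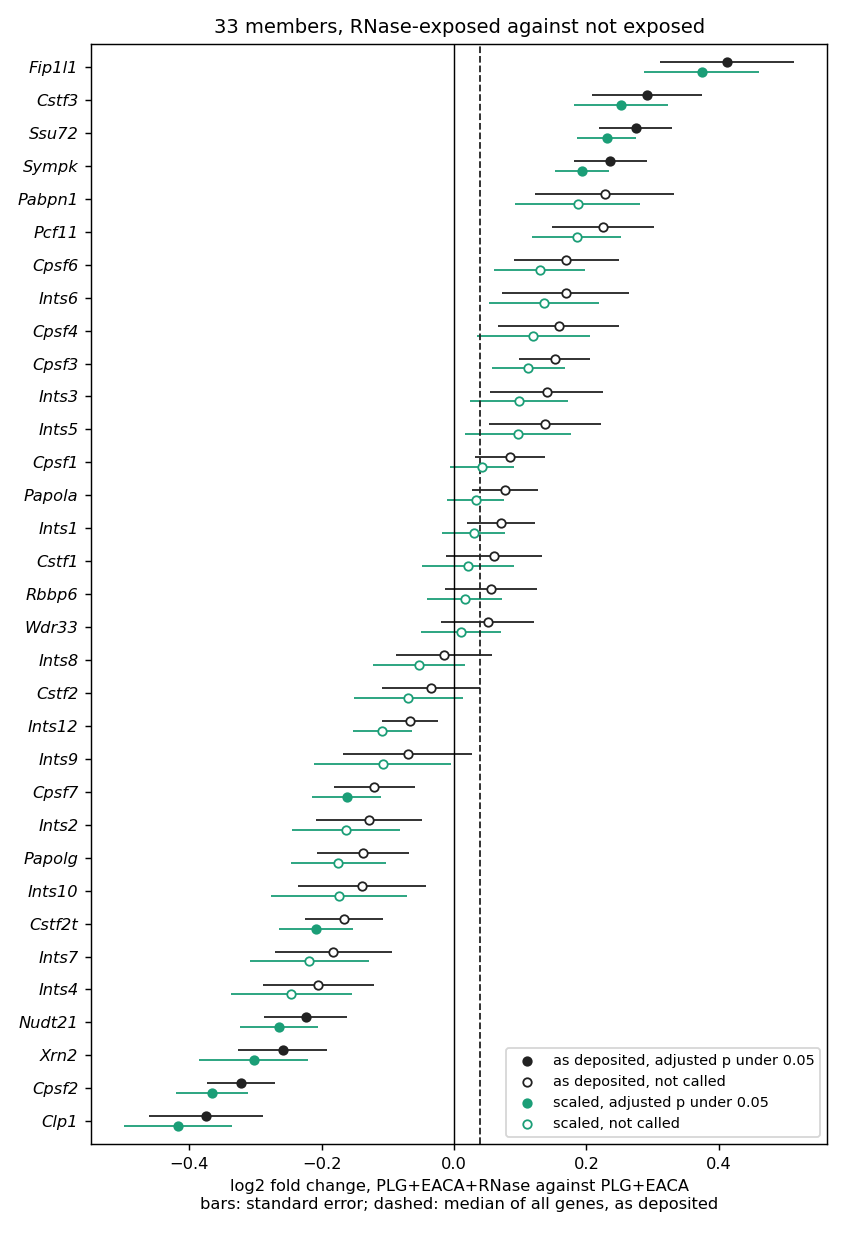
Log2 fold change of each member between PLG+EACA+RNase and PLG+EACA (x axis, bars show the standard error), ordered by the deposited value, as deposited (black) and after scaling (green). Filled points had an adjusted p under 0.05, and the dashed line marks the median of all genes as deposited: Fip1l1 is highest and Clp1 lowest. All Integrator subunits are open points, as are most of the other members.

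In untreated cells the members spanned more than an order of magnitude per length. Papola, the main poly(A) polymerase gene, was highest at 26.6 ± 0.48 FPKM (mean ± SD, n = 4), followed by Ssu72 at 24.1 ± 0.99, Sympk at 19.97 ± 0.26, Xrn2 at 15.6 ± 0.52 and Ints3 at 15.0 ± 0.69. Papola and Ssu72 lay more than their spread apart, while Xrn2 and Ints3 overlapped within 1 SD. The lowest were Ints2 at 1.69 ± 0.11, Cstf2 at 1.92 ± 0.079, Papolg at 2.11 ± 0.12 and Ints6 at 2.11 ± 0.090, of which Papolg and Ints6 did not differ beyond their spread. After PLG+EACA, Ssu72 at 24.6 ± 1.5 and Xrn2 at 22.9 ± 2.1 lay beside Papola at 22.4 ± 0.76, within their spread. After PLG+EACA+RNase, Ssu72 was highest at 29.8 ± 1.5, ahead of Papola at 23.7 ± 1.6, and the lowest were Ints10 at 1.16 ± 0.23 and Ints2 at 1.23 ± 0.15.

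**Figure D3:**
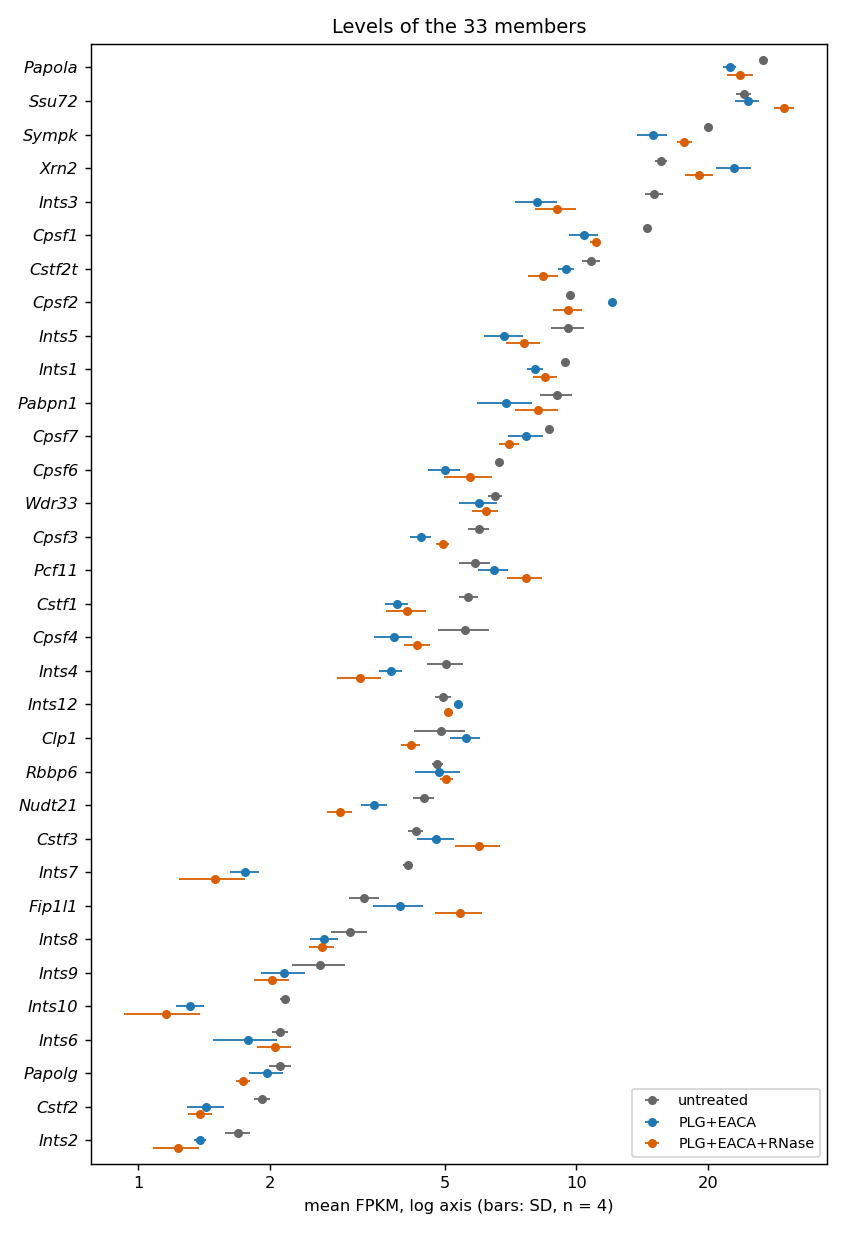
Mean FPKM of the 33 members in each group (x axis, log scale, bars show the SD of 4 libraries), ordered by the untreated level. Papola, Ssu72 and Sympk lead in untreated cells and Ints2 and Cstf2 close the order. Ints3, Ints7 and Ints10 stand out by the distance between their untreated and treated points.

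Within the CPSF core, the subunits moved apart. Cpsf2, whose product partners the nuclease CPSF3, read 9.70, 9.64, 9.68 and 9.73 FPKM in untreated replicates 1 to 4, 12.02, 12.03, 12.2 and 12.01 after PLG+EACA and 9.85, 10.1, 8.48 and 9.80 after PLG+EACA+RNase. All 4 PLG+EACA libraries were above every other library, and the other groups overlapped. Cpsf2 rose after PLG+EACA (log2 0.30 ± 0.05, adjusted p = 0.00024; scaled 0.57, 4.7e-06) and was lower again after PLG+EACA+RNase than after PLG+EACA (log2 -0.32 ± 0.05, adjusted p = 0.0041; scaled -0.37, 0.0035). Against untreated cells, PLG+EACA+RNase gave -0.02 ± 0.05 as deposited (adjusted p = 0.74) and 0.20 after scaling (0.0083), so that call belonged to the scaled values.

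Cpsf3, the endonuclease gene, read 6.13, 5.50, 6.16 and 6.15 FPKM in untreated cells, 4.55, 4.502, 4.06 and 4.53 after PLG+EACA and 5.05, 5.01, 5.05 and 4.71 after PLG+EACA+RNase. As deposited, every treated library lay below every untreated one, while after scaling each treated group overlapped the untreated one. Cpsf3 fell after PLG+EACA (log2 -0.40 ± 0.05, adjusted p = 4.2e-05; scaled -0.15, 0.043), and after PLG+EACA+RNase the fall of -0.25 ± 0.05 as deposited (0.0015) shrank to -0.03 after scaling (0.64). Cpsf1, the large platform subunit, fell from 14.5 ± 0.24 to 10.4 ± 0.80 and 11.1 ± 0.32 FPKM (SD, n = 4), with log2 -0.46 ± 0.05, adjusted p = 1.2e-05; scaled -0.19, 0.0052 and log2 -0.38 ± 0.05, adjusted p = 6.2e-05; scaled -0.15, 0.020. Cpsf4, the zinc-finger reader of the signal, fell after PLG+EACA (log2 -0.48 ± 0.09, adjusted p = 0.00052; scaled -0.23, 0.037), while Wdr33, the other reader, did not pass in any comparison at 6.53 ± 0.24, 5.99 ± 0.60 and 6.21 ± 0.42 FPKM.

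Fip1l1, the gene for FIP1, read 3.19, 2.97, 3.57 and 3.40 FPKM in untreated cells, 4.14, 4.29, 4.21 and 3.18 after PLG+EACA and 5.42, 6.08, 5.68 and 4.52 after PLG+EACA+RNase. The RNase group lay above all other libraries, and PLG+EACA replicate 4 fell within the untreated range while its 3 companions lay above it. After PLG+EACA+RNase it rose against untreated cells (log2 0.64 ± 0.10, adjusted p = 0.00016; scaled 0.85, 8.5e-06) and against PLG+EACA (log2 0.41 ± 0.10, adjusted p = 0.018; scaled 0.37, 0.014). The latter call was lost without PLG+EACA+RNase replicate 2 (adjusted p = 0.057) or replicate 3 (0.056). After PLG+EACA against untreated cells it reached 0.23 ± 0.10 as deposited (0.060) and 0.47 after scaling (0.00065), and without PLG+EACA replicate 4 the deposited value was 0.32 (adjusted p = 0.0074). Sympk, the scaffold, read 19.9, 19.6, 20.2 and 20.2 FPKM in untreated cells, 15.4, 14.9, 16.1 and 13.3 after PLG+EACA and 17.6, 18.01, 18.2 and 16.7 after PLG+EACA+RNase. The 3 groups did not overlap on the deposited scale. Sympk fell after PLG+EACA (log2 -0.41 ± 0.06, adjusted p = 4.3e-05; scaled -0.14, 0.012) and was higher after PLG+EACA+RNase than after PLG+EACA (log2 0.24 ± 0.06, adjusted p = 0.015; scaled 0.19, 0.011), while its deposited fall of -0.18 ± 0.06 after PLG+EACA+RNase (0.015) turned to 0.05 after scaling (0.31).

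**Figure D4:**
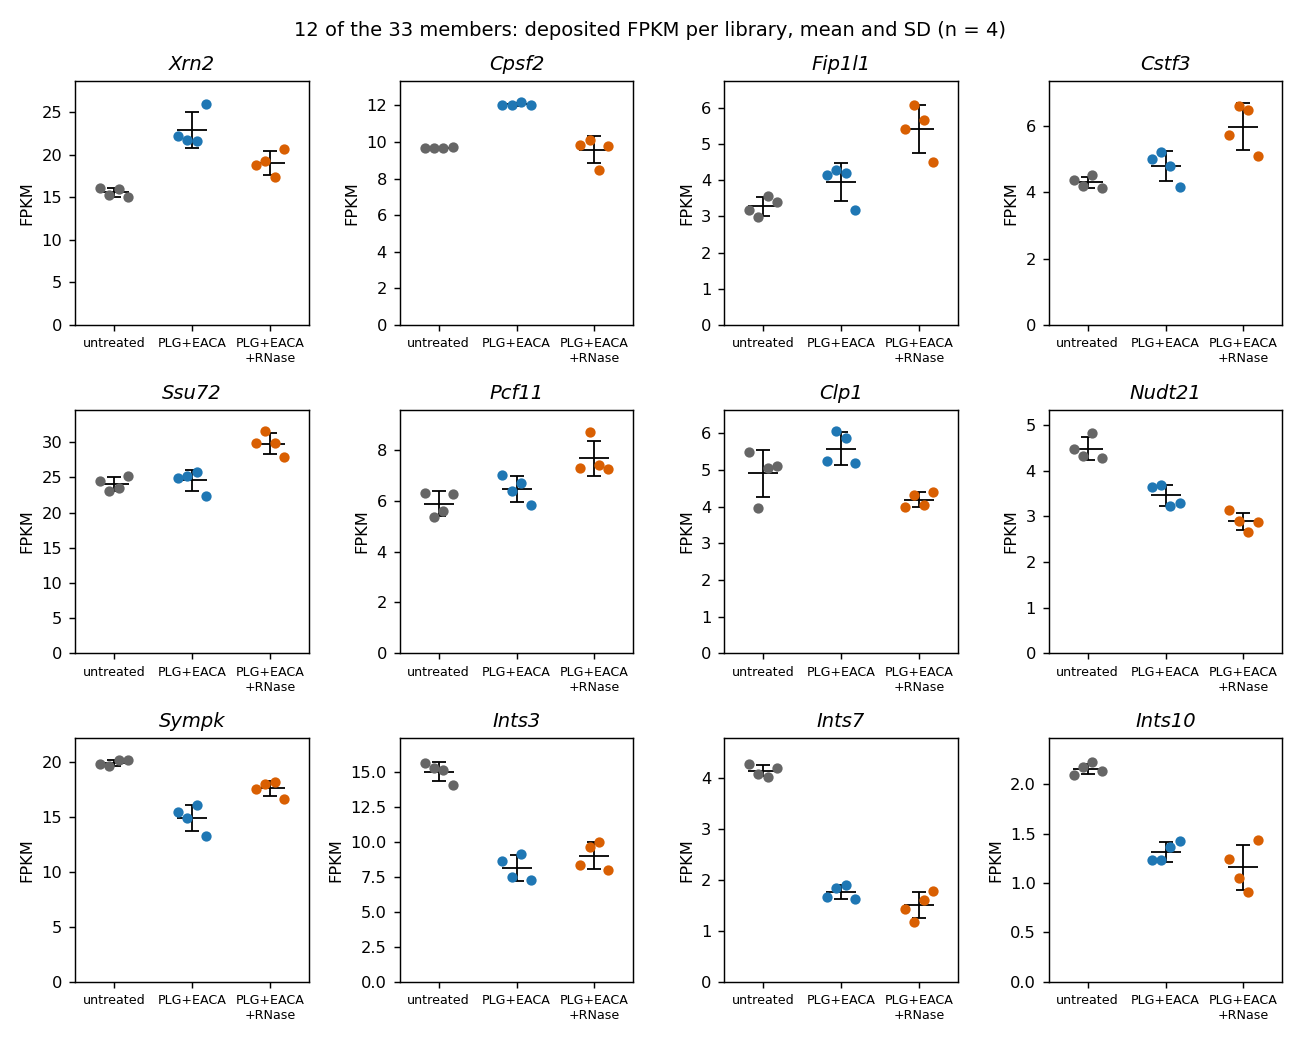
Deposited FPKM (y axis, from 0) of 12 members in each of the 12 libraries, with points in the order of the replicate numbers, a black line for the mean and bars for the SD of 4 libraries. Cpsf2 is high in the 4 PLG+EACA libraries, Fip1l1, Cstf3 and Ssu72 are highest after PLG+EACA+RNase, and Ints3, Ints7 and Ints10 are low in all 8 treated libraries.

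The 4 CstF genes also moved apart. Cstf3, whose product is the hub that dimerises and holds the other subunits, read 4.37, 4.19, 4.51 and 4.13 FPKM in untreated cells, 4.997, 5.21, 4.80 and 4.16 after PLG+EACA and 5.72, 6.61, 6.49 and 5.11 after PLG+EACA+RNase. Every RNase-group library was above the untreated ones, and replicate 4 was the lowest of each treated group. Cstf3 rose after PLG+EACA+RNase against untreated cells (log2 0.43 ± 0.08, adjusted p = 0.00073; scaled 0.64, 1.7e-05) and against PLG+EACA (log2 0.29 ± 0.08, adjusted p = 0.031; scaled 0.25, 0.028). That second call was lost without PLG+EACA replicate 4 (adjusted p = 0.074), PLG+EACA+RNase replicate 2 (0.090) or PLG+EACA+RNase replicate 3 (0.090). After PLG+EACA against untreated cells it gave 0.14 ± 0.08 (0.16), and 0.39 after scaling (0.00068).

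Cstf1 read 5.58, 6.005, 5.75 and 5.33 FPKM in untreated cells, 3.99, 3.88, 4.14 and 3.58 after PLG+EACA and 4.28, 3.45, 4.34 and 4.31 after PLG+EACA+RNase, so that all treated libraries were below all untreated ones. It fell with both treatments (log2 -0.49 ± 0.07, adjusted p = 9.0e-05; scaled -0.24, 0.013, then log2 -0.43 ± 0.07, adjusted p = 0.00027; scaled -0.22, 0.020). Cstf2, the X-linked gene of the RNA-binding subunit CstF-64, was weakly expressed, at 1.92, 1.90, 1.83 and 2.02 FPKM in untreated cells, 1.39, 1.34, 1.35 and 1.64 after PLG+EACA and 1.38, 1.43, 1.26 and 1.46 after PLG+EACA+RNase. As deposited, no treated library reached the untreated range, while after scaling the PLG+EACA group overlapped it. The falls of Cstf2, -0.33 ± 0.07 (0.0020) and -0.36 ± 0.07 (0.0011), did not pass after scaling (-0.11 and -0.18, adjusted p = 0.28 and 0.085). Its autosomal paralogue Cstf2t was several times higher, at 11.1, 10.3, 11.3 and 10.5, 9.99, 9.52, 9.34 and 9.06 and 8.84, 8.25, 7.56 and 8.98 FPKM. As deposited, the untreated libraries again lay highest and the RNase group lowest, without overlap. After scaling, only the treated groups stayed apart from each other. Cstf2t fell with both treatments as deposited (-0.18 ± 0.06, adjusted p = 0.016, and -0.35 ± 0.06, 0.00027), and after scaling the first turned to 0.08 (0.23) and the second was -0.12 (0.082). The first deposited call was also lost without untreated replicate 3 (adjusted p = 0.051).

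All 3 CFI genes fell as deposited with both treatments, and most of those calls were lost after scaling. Nudt21, the gene of the UGUA-binding subunit whose loss is known to favour proximal poly(A) sites, read 4.48, 4.31, 4.83 and 4.28 FPKM in untreated cells, 3.64, 3.68, 3.23 and 3.29 after PLG+EACA and 3.13, 2.89, 2.66 and 2.88 after PLG+EACA+RNase. As deposited the groups did not overlap, with the RNase group lowest, and after scaling the PLG+EACA and untreated groups overlapped. It fell after PLG+EACA+RNase against untreated cells (log2 -0.55 ± 0.06, adjusted p = 1.3e-05; scaled -0.35, 0.00038) and against PLG+EACA (log2 -0.22 ± 0.06, adjusted p = 0.029; scaled -0.26, 0.012), whereas after PLG+EACA the fall of -0.33 ± 0.06 (0.00058) became -0.08 after scaling (0.25). Between the treatments the call was lost without PLG+EACA replicate 1 (adjusted p = 0.068), PLG+EACA replicate 2 (0.066), PLG+EACA+RNase replicate 2 (0.067) or PLG+EACA+RNase replicate 3 (0.084). Its partners Cpsf6, at 6.65 ± 0.13, 5.0 ± 0.42 and 5.70 ± 0.70 FPKM, and Cpsf7, at 8.67 ± 0.069, 7.68 ± 0.69 and 7.02 ± 0.37, fell with both treatments as deposited and did not pass against untreated cells after scaling, where Cpsf6 after PLG+EACA+RNase (0.00) and Cpsf7 after PLG+EACA (0.09) changed sign. The calls on Cpsf6 after PLG+EACA+RNase and on Cpsf7 after PLG+EACA were marginal: leaving out any 1 of 7 and of 5 of the 8 libraries compared, respectively, lost them, with adjusted p up to 0.0998 and 0.068.

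The values of the CFII pair moved alike after PLG+EACA and apart after PLG+EACA+RNase. Pcf11, which binds the polymerase's C-terminal domain and promotes termination, read 6.30, 5.35, 5.60 and 6.28 FPKM in untreated cells, 7.00, 6.37, 6.71 and 5.81 after PLG+EACA and 7.28, 8.71, 7.39 and 7.25 after PLG+EACA+RNase. All 4 RNase-group libraries were above all others. It rose after PLG+EACA+RNase against untreated cells (log2 0.35 ± 0.08, adjusted p = 0.0016; scaled 0.57, 2.7e-05). Against PLG+EACA the value of 0.23 ± 0.08 missed the threshold (0.057, and 0.069 after scaling), and after PLG+EACA against untreated cells it was 0.13 ± 0.08 (0.16), or 0.38 after scaling (0.00048). Clp1, the RNA kinase subunit, read 5.49, 3.98, 5.07 and 5.10 FPKM in untreated cells, 5.24, 6.06, 5.87 and 5.19 after PLG+EACA and 3.98, 4.33, 4.05 and 4.40 after PLG+EACA+RNase. The RNase group lay below every PLG+EACA library, and the untreated libraries were spread over both. Clp1 was lower after PLG+EACA+RNase than after PLG+EACA (log2 -0.37 ± 0.09, adjusted p = 0.014; scaled -0.42, 0.0082) and rose after PLG+EACA against untreated cells only after scaling (0.43, adjusted p = 0.00082, against 0.18 ± 0.09, 0.088, as deposited). Untreated replicate 2, at 3.98 FPKM, was the lowest untreated library, and without it the deposited fall after PLG+EACA+RNase passed (-0.29, adjusted p = 0.0035).

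The tail-adding genes changed little. Papola fell with both treatments as deposited (-0.25 ± 0.05, adjusted p = 0.00089, and -0.17 ± 0.05, 0.010) and stood at 0.03 and 0.06 after scaling, neither of which passed. Papolg, a second nuclear poly(A) polymerase gene, went from 2.11 ± 0.12 to 1.97 ± 0.17 and 1.74 ± 0.064 FPKM, and Pabpn1, which sets tail length, from 9.02 ± 0.75 to 6.92 ± 0.98 and 8.16 ± 0.94. Papolg after PLG+EACA+RNase (-0.22 ± 0.07, adjusted p = 0.015) and Pabpn1 after PLG+EACA (-0.37 ± 0.10, 0.0081) fell as deposited, at -0.03 and -0.11 after scaling, where neither passed.

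Against untreated cells, none of the 3 termination and accessory genes fell on either scale. Xrn2 read 16.1, 15.3, 16.02 and 15.0 FPKM in untreated cells, 22.2, 21.8, 21.7 and 26.0 after PLG+EACA and 18.8, 19.3, 17.4 and 20.7 after PLG+EACA+RNase. The 3 groups did not overlap, after PLG+EACA highest, and replicate 4 was the highest of each treated group. Xrn2 rose after PLG+EACA (log2 0.54 ± 0.07, adjusted p = 2.4e-05; scaled 0.81, 7.0e-06) and after PLG+EACA+RNase (log2 0.28 ± 0.07, adjusted p = 0.0030; scaled 0.51, 0.00028), and it was lower with than without RNase (log2 -0.26 ± 0.07, adjusted p = 0.022; scaled -0.30, 0.024). The last call was lost without PLG+EACA+RNase replicate 2 (adjusted p = 0.0501) or replicate 3 (0.065). Ssu72, a phosphatase of the polymerase's C-terminal domain, read 24.5, 23.0, 23.5 and 25.2 FPKM in untreated cells, 24.9, 25.2, 25.8 and 22.4 after PLG+EACA and 29.9, 31.6, 29.9 and 27.8 after PLG+EACA+RNase. The RNase group was above all other libraries, and the other groups overlapped. Ssu72 rose after PLG+EACA+RNase against untreated cells (log2 0.30 ± 0.06, adjusted p = 0.00047; scaled 0.53, 1.8e-06) and against PLG+EACA (log2 0.27 ± 0.06, adjusted p = 0.0094; scaled 0.23, 0.0080), while PLG+EACA gave 0.03 ± 0.06 (0.66), and 0.30 after scaling (0.00014). Rbbp6, a ubiquitin ligase that activates the cleavage complex, was level as deposited at 4.82 ± 0.13, 4.86 ± 0.57 and 5.05 ± 0.17 FPKM and rose with both treatments after scaling (0.26 and 0.27, adjusted p = 0.0024 and 0.0016).

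Integrator held the largest falls of the 33 genes. Ints7, a backbone subunit, read 4.27, 4.08, 4.02 and 4.18 FPKM in untreated cells, 1.65, 1.84, 1.90 and 1.63 after PLG+EACA and 1.43, 1.18, 1.60 and 1.77 after PLG+EACA+RNase. The highest treated library, at 1.90 FPKM, was below the lowest untreated one, at 4.02. The folds given next, for Ints7 and Ints3, are of FPKM + 0.5, which understates changes of low genes. Ints7 fell 2.06-fold after PLG+EACA (log2 -1.04 ± 0.09, adjusted p = 1.4e-06; scaled -0.81, 1.4e-05) and 2.34-fold after PLG+EACA+RNase (log2 -1.22 ± 0.09, adjusted p = 5.5e-07; scaled -1.02, 2.5e-06). Ints3, also a subunit of the SOSS complex that binds single-stranded DNA, read 15.6, 15.3, 15.2 and 14.1 FPKM in untreated cells, 8.65, 7.46, 9.14 and 7.29 after PLG+EACA and 8.37, 9.63, 10.03 and 8.02 after PLG+EACA+RNase. All 8 treated libraries were below the untreated ones, while the treated groups overlapped. It fell 1.81-fold (log2 -0.85 ± 0.08, adjusted p = 4.4e-06; scaled -0.59, 3.8e-05) and 1.64-fold (log2 -0.71 ± 0.08, adjusted p = 1.9e-05; scaled -0.49, 0.00017).

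Ints10, which belongs to a module with INTS13 and INTS14, read 2.10, 2.17, 2.22 and 2.14 FPKM in untreated cells, 1.23, 1.24, 1.37 and 1.43 after PLG+EACA and 1.24, 1.05, 0.909 and 1.43 after PLG+EACA+RNase. The untreated libraries lay apart and above, and the treated groups overlapped. It fell after PLG+EACA (log2 -0.55 ± 0.10, adjusted p = 0.00031; scaled -0.34, 0.016) and PLG+EACA+RNase (log2 -0.69 ± 0.10, adjusted p = 6.4e-05; scaled -0.51, 0.0013). Ints4, part of the cleavage module with INTS9 and INTS11, read 5.06, 5.33, 5.39 and 4.36 FPKM in untreated cells, 3.82, 3.66, 3.52 and 4.05 after PLG+EACA and 3.51, 2.72, 3.12 and 3.49 after PLG+EACA+RNase. As deposited, the treated libraries were again below every untreated value, and after scaling the PLG+EACA group overlapped the untreated one. After PLG+EACA+RNase Ints4 fell on both scales (log2 -0.58 ± 0.08, adjusted p = 8.8e-05; scaled -0.37, 0.0047), and after PLG+EACA its fall of -0.37 ± 0.08 (0.0019) became -0.12 after scaling (0.28).

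Ints9, the inactive homologue of the nuclease INTS11, read 3.005, 2.51, 2.75 and 2.16 FPKM in untreated cells, 1.99, 2.14, 1.98 and 2.505 after PLG+EACA and 2.18, 1.79, 2.17 and 1.95 after PLG+EACA+RNase, with overlap between all 3 groups. It reached -0.22 ± 0.10 (0.058) and -0.30 ± 0.10 (0.019) as deposited, and 0.01 and -0.10 after scaling, where neither passed. Its deposited fall after PLG+EACA+RNase was lost without untreated replicate 1 (adjusted p = 0.063) or 3 (0.052) or without PLG+EACA+RNase replicate 2 (0.055). Ints6, the subunit that recruits the phosphatase PP2A, read 2.07, 2.001, 2.19 and 2.18 FPKM in untreated cells, 1.95, 1.73, 2.05 and 1.38 after PLG+EACA and 2.29, 2.10, 1.91 and 1.89 after PLG+EACA+RNase, and passed in no comparison on either scale. Its change was -0.20 ± 0.10 after PLG+EACA as deposited and 0.01 after scaling, and -0.04 ± 0.10 and 0.15 after PLG+EACA+RNase.

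Of the remaining Integrator subunits, Ints5 fell from 9.57 ± 0.80 to 6.85 ± 0.70 and 7.58 ± 0.67 FPKM as deposited (-0.46 ± 0.08 and -0.32 ± 0.08), at -0.19 and -0.10 after scaling, where it did not pass. Ints1, the largest scaffold subunit, and Ints2 fell with both treatments as deposited, Ints1 by -0.21 ± 0.05 and -0.14 ± 0.05 and Ints2 by -0.21 ± 0.08 and -0.34 ± 0.08. After scaling neither passed, and Ints1 stood above 0 (0.05 and 0.08). The Ints2 call after PLG+EACA (adjusted p = 0.034) was lost in 7 of the 8 fits that left out 1 library, and the Ints1 call after PLG+EACA+RNase (0.028) in 4 of 8. Ints8, at 3.03 ± 0.29, 2.66 ± 0.19 and 2.62 ± 0.18 FPKM, did not pass on either scale. Ints12, which carries a PHD finger, was the exception in direction: it was level as deposited at 4.97 ± 0.20, 5.36 ± 0.12 and 5.09 ± 0.059 FPKM and rose with both treatments after scaling (0.35, adjusted p = 4.0e-05, and 0.24, 0.00066).

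Ratios between 2 members within a library do not depend on the scale. They were computed for 7 pairs in 3 comparisons, 21 tests, by exact two-sided permutation of 4 against 4 libraries, for which 0.0286 is the smallest possible p and the smallest adjusted p reached was 0.075, so no ratio passed after Benjamini-Hochberg adjustment. The pairs were chosen with their values known. Cpsf2 to Cpsf3 was 1.62 ± 0.087 in untreated cells, 2.74 ± 0.17 after PLG+EACA and 1.93 ± 0.18 after PLG+EACA+RNase (mean ± SD, n = 4). All PLG+EACA libraries were above all others (exact p = 0.0286, adjusted 0.075, in both comparisons). Pcf11 to Clp1 was 1.21 ± 0.11, 1.16 ± 0.12 and 1.83 ± 0.15, with all RNase-group libraries highest (exact p = 0.0286, adjusted 0.075, against either group).

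The paralogue pairs were read the same way. Cpsf7 to Cpsf6, the alternative CFI partners of Nudt21, was 1.30 ± 0.030 in untreated cells, 1.54 ± 0.050 after PLG+EACA and 1.24 ± 0.16 after PLG+EACA+RNase. PLG+EACA libraries were highest without overlap (exact p = 0.0286, adjusted 0.075, against either group), and the other groups gave an exact p of 0.486. Cstf2t to Cstf2 was 5.65 ± 0.44, 6.68 ± 0.78 and 6.07 ± 0.26, with overlap in all comparisons and exact p from 0.0857 to 0.229. Ints6l, the Ints6 paralogue outside the list of 33, stood to Ints6 at 2.19 ± 0.18 in untreated cells and lower, at 1.39 ± 0.080 and 1.26 ± 0.092, in the treated groups (exact p = 0.0286, adjusted 0.075, for both). Papola to Papolg and Ints9 to Ints11 gave exact p of 0.0571 to 0.714.

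**Figure D5:**
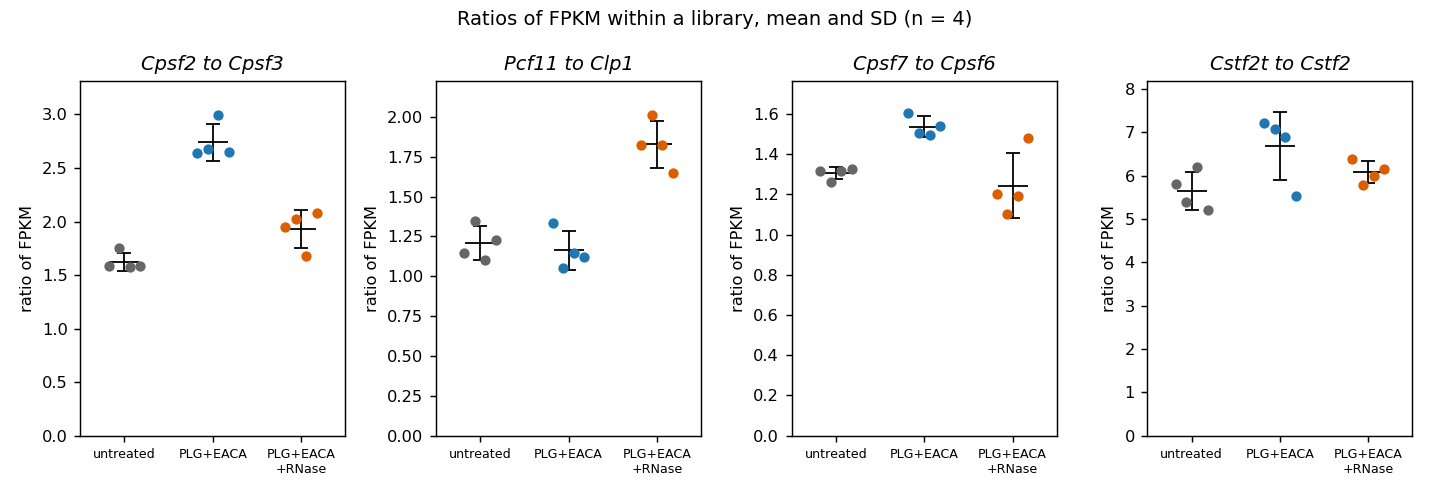
Ratio of FPKM of 2 members within each library (y axis, from 0), with 4 libraries per group in the order of the replicate numbers, a black line for the mean and bars for the SD. Cpsf2 to Cpsf3 is raised in the 4 PLG+EACA libraries, Pcf11 to Clp1 in the 4 PLG+EACA+RNase libraries, and Cstf2t to Cstf2 overlaps between all groups.

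Start-site sequences of 4 members that rose and 2 that fell, chosen with their values known, are printed so that a reader can compare promoters of genes that moved in different directions. RefSeq windows (GRCm38.p6) of 300 bases, 250 before and 50 after the start, were found for 27 of the 33; Ints5, Ints9, Cpsf1, Ints10, Wdr33 and Ints8 were without one. Capitals mark letters that match any of 9 motifs searched on both strands: ETS (CCGGAAG), NRF1 (GCGCATGCG), E2F (TTTGGCGC), CRE (TGACGTCA), YY1 (AAGATGGCG), the CCAAT box (CCAAT), the TATA box (TATAAA), an ISRE core (GAAANNGAA) and NF-kB (GGGANTTCC). The motifs were chosen after these sequences had been seen. The first 4 windows belong to genes that rose and the last 2 to genes that fell: Xrn2 (chr2:147012749-147013048, plus strand), Cpsf2 (chr12:101975724-101976023, plus), Fip1l1 (chr5:74535241-74535540, plus), Cstf3 (chr2:104590234-104590533, plus), Ints7 (chr1:191575386-191575685, plus) and Ints3 (chr3:90433587-90433886, minus).
Xrn2: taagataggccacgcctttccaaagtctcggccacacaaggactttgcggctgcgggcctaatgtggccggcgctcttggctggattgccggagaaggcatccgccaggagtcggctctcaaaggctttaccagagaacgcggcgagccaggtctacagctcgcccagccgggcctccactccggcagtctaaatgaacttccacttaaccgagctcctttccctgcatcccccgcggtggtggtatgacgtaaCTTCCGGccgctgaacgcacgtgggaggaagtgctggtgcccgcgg
Cpsf2: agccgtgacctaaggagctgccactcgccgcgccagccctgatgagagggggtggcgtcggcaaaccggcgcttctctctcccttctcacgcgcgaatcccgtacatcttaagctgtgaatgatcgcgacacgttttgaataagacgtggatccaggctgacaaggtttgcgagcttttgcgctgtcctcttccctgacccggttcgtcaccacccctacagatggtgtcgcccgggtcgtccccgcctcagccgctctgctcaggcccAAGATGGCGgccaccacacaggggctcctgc
Fip1l1: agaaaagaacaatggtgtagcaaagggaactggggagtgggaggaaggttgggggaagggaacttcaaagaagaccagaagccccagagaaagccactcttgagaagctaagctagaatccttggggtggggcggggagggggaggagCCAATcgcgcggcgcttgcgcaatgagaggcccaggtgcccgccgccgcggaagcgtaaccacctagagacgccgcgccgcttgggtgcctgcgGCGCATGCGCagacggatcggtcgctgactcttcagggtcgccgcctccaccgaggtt
Cstf3: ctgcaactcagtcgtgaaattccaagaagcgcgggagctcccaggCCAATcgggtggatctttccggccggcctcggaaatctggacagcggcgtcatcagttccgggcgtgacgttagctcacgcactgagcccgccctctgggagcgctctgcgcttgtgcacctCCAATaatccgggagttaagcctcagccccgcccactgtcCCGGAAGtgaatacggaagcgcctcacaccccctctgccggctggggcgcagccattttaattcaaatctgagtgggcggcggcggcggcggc
Ints7: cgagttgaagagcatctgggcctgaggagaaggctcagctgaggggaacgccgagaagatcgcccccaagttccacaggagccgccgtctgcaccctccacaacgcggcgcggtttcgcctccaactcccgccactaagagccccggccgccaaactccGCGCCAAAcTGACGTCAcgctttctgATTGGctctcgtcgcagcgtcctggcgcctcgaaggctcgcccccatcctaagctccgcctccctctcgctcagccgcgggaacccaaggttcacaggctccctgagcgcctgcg
Ints3: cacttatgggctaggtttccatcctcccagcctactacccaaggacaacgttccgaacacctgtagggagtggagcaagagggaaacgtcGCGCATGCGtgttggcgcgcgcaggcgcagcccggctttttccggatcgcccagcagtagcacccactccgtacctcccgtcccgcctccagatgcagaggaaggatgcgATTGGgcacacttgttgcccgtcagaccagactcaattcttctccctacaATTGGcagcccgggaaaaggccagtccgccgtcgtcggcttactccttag

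In the printed windows, Xrn2 and Cstf3 hold the ETS letters, Cpsf2 the YY1 letters, and Ints7 adjoining E2F and CRE matches. Fip1l1 and Ints3 hold 1 NRF1 site each. That of Fip1l1 lies across the start site and is a palindrome, matched on both strands. The ETS letters were found for 9 of the 27 members (Cpsf3, Cpsf7, Cstf2t, Cstf3, Ints1, Ints12, Nudt21, Rbbp6 and Xrn2), against 8.86% of all 32851 windows. These 9 genes include ones that rose and ones that fell. A member with more than 1 window counted if any of them matched, whereas the percentages are shares of single windows, so the measures are not alike. NRF1 stood in 3 (all windows 1.75%), YY1 in 2 (1.403%), E2F in 1 (0.514%), CRE in 1 (1.79%), the CCAAT box in 13 (37.4%) and NF-kB in 1 (1.68%). The TATA box (13.6%) and the ISRE core (8.56%) were in none of the 27. These are matches of letters, and no binding was measured.

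Because some of the 33 genes make the machinery that reads poly(A) signals, the signals in the transcripts of all 33 were read too. Within the last 40 bases of the GENCODE M21 principal transcript, 21 of the 33 had AATAAA, 1 (Pcf11) had the variant ATTAAA without it and 11 had neither, against 62.6%, 14.2% and 23.3% of the 9616 tested genes that had such a transcript. Windows of 30 bases are shown for a gene that rose with each signal and for the gene that fell most. The last match of the hexamer is in capitals, and Xrn2 has another AATAAA directly before it, left in lower case. The windows are Xrn2 (chr2:147077971-147078000, plus strand, GRCm38), Pcf11 (chr7:92643551-92643580, minus) and Ints7 (chr1:191623659-191623688, plus).
Xrn2: aaaaataaaAATAAAgctaaactttaaaaa
Pcf11: tatacagtATTAAAacttgtgatttttttt
Ints7: gacttagaaaacaAATAAAagcaggtcctg

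Several members start close to a gene on the other strand, and whether read counting used the strand is not stated. Of 10 members with such a neighbour within 1000 bases, Ints7 starts 92 bases from Dtl, a replication-linked ubiquitin ligase adaptor, which was at 0.318 ± 0.043 FPKM in untreated cells, 0.141 ± 0.061 after PLG+EACA and 0.155 ± 0.023 after PLG+EACA+RNase, too low to be tested. Cstf1 starts 146 bases from Aurka, a mitotic kinase, which went from 3.27 ± 0.29 to 1.66 ± 0.31 and 1.47 ± 0.41 FPKM and fell on both scales (-0.81 and -0.95, -0.58 and -0.76 after scaling). Nudt21 starts 167 bases from Ogfod1, which went from 4.03 ± 0.23 to 2.60 ± 0.070 and 2.45 ± 0.33 and also fell on both scales (-0.55 and -0.62, -0.31 and -0.42). Hmbox1, 174 bases from Ints9, went the other way after scaling (0.34 and 0.19), and Ptcd1, 105 bases from Cpsf4, did not pass. Exons of Cpsf1, Cpsf2, Cpsf3, Cpsf7, Rbbp6 and Ints2 overlap an expressed gene of the opposite strand over at most 4.83% of their length. Such a gene can be the more highly expressed one, as Brip1os is over Ints2 with 7.99 FPKM on average, and how far this affects the values was not measured.

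Genes around this machinery were read from 7 lists, given as counts of members that rose and fell. The shares over all genes to read them against are 14.9% higher and 53.4% lower after PLG+EACA, 16.0% and 48.4% after PLG+EACA+RNase, and 12.1% and 8.73% between the treatments. After scaling these shares are 27.3% and 26.4%, 28.4% and 26.4%, and 10.6% and 11.4%. Of 9 other Integrator subunits and partners, 1 rose and 7 fell with each treatment (2 and 3, and 2 and 5, after scaling). Ppp2ca, the PP2A catalytic subunit that Integrator carries, rose (0.12 ± 0.04 and 0.14 ± 0.04), the first of these calls being lost without untreated replicate 2 or 4 or PLG+EACA replicate 3 (adjusted p from 0.052 to 0.071). Ints6l (-0.79 ± 0.08 and -0.74 ± 0.08) and Inip, the small SOSS subunit that pairs with INTS3 (-0.63 ± 0.07 and -0.59 ± 0.07), fell on both scales. Between the treatments only Ints14 passed (-0.23 ± 0.05). Of 10 tested genes of histone pre-mRNA processing, 0 rose and 6 fell after PLG+EACA and 0 and 7 after PLG+EACA+RNase (1 and 2, and 2 and 4, after scaling). Without untreated replicate 1, 3 in place of 6 fell after PLG+EACA. Among them Slbp, the histone stem-loop binding protein, fell (-0.49 ± 0.07 and -0.72 ± 0.07) and Lsm10, a U7 snRNP protein, fell after PLG+EACA (-0.71 ± 0.12), both also after scaling.

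Of 21 termination and C-terminal domain regulators, 1 rose and 13 fell after PLG+EACA, 3 and 13 after PLG+EACA+RNase, and 3 and 5 between the treatments (5 and 7, 7 and 9, and 3 and 5 after scaling; all genes 14.9% and 53.4%, 16.0% and 48.4%, and 12.1% and 8.73% as deposited). After PLG+EACA 2 in place of 1 rose without PLG+EACA replicate 4. Between the treatments 5 in place of 3 were higher without PLG+EACA+RNase replicate 4, and 3 or 2 in place of 5 were lower without PLG+EACA+RNase replicate 2 or 3. Ppp1r10, the PNUTS subunit of the phosphatase that slows the polymerase past the poly(A) site, rose after PLG+EACA+RNase (0.62 ± 0.08) and was higher there than after PLG+EACA (0.44 ± 0.08). Scaf4, an anti-terminator of early poly(A) sites, did likewise (0.27 ± 0.10 and 0.41 ± 0.10), although its call against untreated cells was lost without untreated replicate 3 or PLG+EACA+RNase replicate 1 or 2 (adjusted p from 0.055 to 0.076). Cdk12, a kinase that sustains elongation to distal sites, was lower after PLG+EACA+RNase than after PLG+EACA (-0.43 ± 0.08). Each of these calls held after scaling.

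Of 20 genes of nuclear RNA decay, 1 rose and 15 fell after PLG+EACA and 1 and 16 after PLG+EACA+RNase (2 and 9 in both after scaling), where 14.9% and 53.4%, and 16.0% and 48.4%, of all genes did so as deposited and 27.3% and 26.4%, and 28.4% and 26.4%, after scaling. Rbm7, of the NEXT complex, rose (0.32 ± 0.06 and 0.28 ± 0.06), and Ncbp2, the small cap-binding protein (-0.76 ± 0.07 and -0.81 ± 0.07), and the exosome gene Exosc2 (-0.74 ± 0.11 and -0.83 ± 0.11) fell on both scales. The list's median change was -0.43 and -0.35 as deposited and -0.20 and -0.13 after scaling, beside -0.01 and 0.01 for all genes. Of 17 U1 snRNP and other poly(A) site regulators, 2 rose and 6 fell, then 4 and 7 (8 and 3 in both after scaling). The 4 became 2 without untreated replicate 2 or 4 or PLG+EACA+RNase replicate 1. Ell2, an elongation factor known for promoting a proximal poly(A) site in plasma cells, rose (0.52 ± 0.04 and 0.42 ± 0.04), also after scaling.

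Of 19 other genes for poly(A) polymerases and deadenylase complexes, 5 rose and 10 fell with each treatment (8 and 6, and 5 and 6, after scaling), against 14.9% and 53.4%, and 16.0% and 48.4%, of all genes as deposited. After PLG+EACA the 5 that rose were all terminal nucleotidyltransferases: Tent2, Tent4a, Tent4b, Tent5a and Tent5c, and the 5 held after scaling. Tent4a rose most (1.07 ± 0.12) and was lower after PLG+EACA+RNase than after PLG+EACA (-0.55 ± 0.12), as was Tent5a (-0.83 ± 0.14), both also after scaling. Cnot10 (-0.59 ± 0.08 and -0.54 ± 0.08) and Pan2 (-0.51 ± 0.09 after PLG+EACA), genes of deadenylase complexes, fell, also after scaling. Of the small nuclear RNA genes that Integrator processes, 4 were tested and 1, Rnu1a1, passed, after PLG+EACA+RNase (0.40 ± 0.16). It rests on 6.60 to 11.2 FPKM over a gene of 164 bases with near-identical copies elsewhere, was lost in 5 of the 8 fits that left out 1 library, and is uncertain.

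Part of the calls rested on the shared spread of all 3 groups. When only the 2 treated groups were fitted, Fip1l1, Sympk, Cstf3, Nudt21 and Xrn2 no longer passed between them (adjusted p from 0.059 to 0.089), leaving 1 higher and 2 lower. Against untreated cells, 18 of the 21 calls after PLG+EACA and 22 of the 25 after PLG+EACA+RNase passed whichever single library was left out. The share of all-gene calls that did so is not given here, so this is no trait of the list. Without PLG+EACA replicate 4, Fip1l1 and Cstf3 joined the members that rose after PLG+EACA, 4 in place of 2.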

How the data were processed

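Gene-level FPKM of 12 total RNA libraries (3 groups of 4) were analysed as the authors deposited them, per the file headers with 1 column per library and with gene length and coordinates. Per the submitters' processing notes, which give no role or order, the build was GRCm38.p6 and the tools were STAR 2.7.11a and featureCounts 2.0.6, besides DESeq2 1.40.2, cutadapt 4.5 and FastQC 0.12.1. The library kit was directional per the labels' protocols, and whether counting used the strand is not given in the sources used here. FPKM hold no scaling between libraries beyond depth.

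Depth was worked out from the smallest FPKM steps: 99.99% to 100% of values per library lay within 0.1 of a whole read. Groups were taken from the labels. Genes with FPKM of at least 1 in at least 4 libraries (11165) were fitted on log2(FPKM + 0.5), which understates changes of low genes, in limma 3.58.1 (R 4.3.3), by lmFit, contrasts.fit and eBayes with trend, all 12 libraries in 1 model. Tests were two-sided, with Benjamini-Hochberg adjustment over all tested genes of a comparison and a threshold of 0.05. The steps were checked on simulated data. Scaled values are FPKM divided by a median-of-ratios factor per library.

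The members and lists were chosen with earlier results of these data known. Values in every library are given for the 4 highest and 4 lowest fold changes of each comparison and for Pcf11, Cstf2, Cstf2t, Cpsf3, Nudt21, Ints6 and Ints9. From related lists, genes were named from the 2 per direction and comparison that passed and lay farthest from the median of all genes. Not every gene this takes is reported here. Alternatives were other scalings, pseudocounts and filters, a fit of 2 groups alone, a replicate block, limma-voom on recovered reads and leaving out each library.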

Additional observations from a re-analysis of the deposited data

Results flagged for a closer look

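In 11 of the 99 sets of 4 libraries (33 members in 3 groups), 1 library lay so far from the other 3 that its gap exceeded the 95% limit of Dixon's test on the share of the whole range. That is 11.1% of the sets, where chance flags about 1 in 20. PLG+EACA replicate 4 was the library apart for 4 members: it was lowest for Fip1l1 (3.18 FPKM, the others 4.14 to 4.29) and Cpsf6 (4.37, the others 5.18 to 5.23), and highest for Cstf2 (1.64, the others 1.34 to 1.39) and Xrn2 (26.0, the others 21.7 to 22.2). Its scaling factor, 0.877, was also the lowest of the 12 libraries. For Xrn2 and Cstf2 the call against untreated cells held without it, and for Fip1l1 a call appeared (0.32, adjusted p = 0.0074).

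PLG+EACA replicate 3 was lowest for Cpsf3 (4.06 FPKM, the others 4.502 to 4.554) and highest for Cpsf2 (12.2, the others 12.01 to 12.032). PLG+EACA+RNase replicate 2 was lowest for Cstf1 (3.45, the others 4.28 to 4.34) and highest for Pcf11 (8.71, the others 7.25 to 7.39). Cpsf3 was also apart in untreated replicate 2 (5.50, the others 6.13 to 6.15) and PLG+EACA+RNase replicate 4 (4.71, the others 5.01 to 5.05), and Ints5 in PLG+EACA+RNase replicate 3 (8.57, the others 7.14 to 7.30). The calls of Cpsf3, Cstf1, Pcf11 and Ints5 against untreated cells held without each of these libraries.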

How the results depend on the processing

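After median-of-ratios scaling, 9 members were higher and 8 lower after PLG+EACA against untreated cells, and 8 and 7 after PLG+EACA+RNase. Upper-quartile scaling gave 9 higher after PLG+EACA, and 8 higher with 10 lower after PLG+EACA+RNase. After PLG+EACA it lost the lower calls of Cstf2t, Cpsf7, Papola, Pabpn1, Ints1 and Ints2, so more members still fell than rose. The shares over all genes under upper-quartile scaling, the raised filter, the fit of 2 groups alone and the replicate block are not given here. These counts are therefore no result about the list. Raising the filter to a mean FPKM of 5, which left 18 members tested, gave 11 lower, 10 lower and, between the treatments, 2 lower. The fit of the 2 treated groups alone left 1 higher and 2 lower between them. Leaving out 1 library gave 2 to 4 higher and 16 to 20 lower after PLG+EACA, 5 higher in every fit and 17 to 21 lower after PLG+EACA+RNase, and 2 to 7 higher and 2 to 6 lower between the treatments. There, 2 higher and 2 lower were left without PLG+EACA+RNase replicate 2 or 3, and 7 higher and 6 lower without replicate 4. The calls over all genes tested moved as well between the treatments. They ranged from 569 to 1922 higher and 423 to 1306 lower, against 1349 and 975 with every library in. Where a count moved, the cause was not tested, apart from the fewer members or libraries in a fit. Whether replicate numbers pair the libraries cannot be decided from these values. Same-numbered libraries had correlations of -0.176 to 0.332 in their deviations from group means, with 3 of 12 pairs over 0.1. The highest of all pairs, 0.332, joined replicate 4 of the 2 treated groups. Of the 12 libraries, 7 correlated best with one of their own number. A replicate block gave 3 higher and 19 lower, 5 and 20, and 4 and 4 in the 3 comparisons, and added 1 call, Fip1l1 after PLG+EACA (0.23, adjusted p = 0.043).

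Log2 changes of some members changed sign after median-of-ratios scaling. The scaled values after PLG+EACA were Wdr33 0.14, Cstf2t 0.085, Cpsf7 0.094, Papola 0.027, Papolg 0.14, Ints1 0.049, Ints6 0.015, Ints8 0.075 and Ints9 0.0054. After PLG+EACA+RNase they were Cpsf2 0.20, Wdr33 0.15, Sympk 0.052, Cpsf6 0.0047, Clp1 0.012, Papola 0.060, Pabpn1 0.082, Ints1 0.079, Ints6 0.15 and Ints8 0.022. Upper-quartile scaling turned the values of Wdr33 0.031 and Papolg 0.049 after PLG+EACA, and of Cpsf2 0.13, Wdr33 0.081, Pabpn1 0.014, Ints1 0.011 and Ints6 0.094 after PLG+EACA+RNase. Leaving Gm26917, a noncoding RNA with 10.3% to 15.2% of reads, out of the total turned Cpsf2 0.023 and Ints6 0.0013 after PLG+EACA+RNase and Ints8 0.0055 between the treatments. Leaving out 1 library gave ranges across 0 for Cpsf2 -0.048 to 0.033 after PLG+EACA+RNase, Rbbp6 -0.052 to 0.072 after PLG+EACA, and Wdr33 -0.0087 to 0.10, Cstf2 -0.056 to 0.016, Rbbp6 -0.011 to 0.11 and Ints8 -0.040 to 0.027 between the treatments. None of the calls that held on both scales changed sign under any alternative run.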
